A study of Homo sapiens with 18 samples.

Results

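The MYC, MAX and MXD network was taken as 10 genes: MYC, MYCN, MYCL, MAX, MXD1, MXD3, MXD4, MXI1, MNT and MGA. They were found by matching the Ensembl gene IDs of the table to these symbols, and all 10 were among its 40184 IDs. Of these, 9 had at least 1 CPM (counts per 1000000 reads of the library, scaled) in at least 3 samples, as did 16289 genes in all, and MYCN did not. Transcripts were measured by RNA-seq of poly(A)-selected RNA in 18 cultures, from 3 lines of human acute myeloid leukaemia cells, as 3 biological replicates of each of 6 groups. Molm-14 and MV4-11 carry FLT3-ITD, an internal tandem duplication that keeps the FLT3 receptor active, and SKNO-1 carries N822K, a mutation in the receptor gene KIT. Each line was given DMSO, the vehicle, or 500 nM RMC-4550 (RMC) for 24 h. RMC is an allosteric inhibitor of SHP2, the phosphatase that links receptor tyrosine kinases to RAS. Only the SKNO-1 medium contained GM-CSF, at 10 ng/mL with and without RMC, so line and growth factor cannot be told apart. Nothing says that replicates came from separate passages, so p-values measure the spread between these cultures. The comparisons asked how the balance of MYC against its antagonists stood in each line and how it changed with RMC.

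MYC, MYCN and MYCL are basic helix-loop-helix leucine zipper proteins that bind DNA only as dimers with MAX. At E-box sites these dimers recruit coactivators and raise the transcription of genes for ribosome production, nucleotide synthesis and cell cycle entry. MXD1, MXD3, MXD4, MXI1 and MNT compete for the same MAX and the same sites, but bring in the SIN3 corepressor with histone deacetylases. MGA also dimerises with MAX and is the scaffold of a Polycomb complex, PRC1.6. In myeloid cells MYC is high while cells divide, and several MXD genes rise as cells mature. MYC transcripts are short-lived, and signalling through RAS and ERK acts both on MYC transcription and on the stability of the protein.

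The canonical E-box is CACGTG, which reads the same on both strands. It was searched in the 250 bases before each RefSeq start site (build GRCh38.p14) of the 9 members other than MYC, which have 14 such windows. It was present in 2 of the 14 windows, those of MXD4 and MNT, against 6.34% of 35116 windows of the same length over all genes. Both stretches are shown because they hold the site that the network's own proteins recognise, with the E-box in capitals. Each is read 5′ to 3′ on the minus strand, and neither overlaps a GENCODE 29 exon. No binding was measured in these cells. The E-box starts 238 bases before the start site of MXD4 and 193 bases before that of MNT.
MXD4, chr4:2262302-2262359: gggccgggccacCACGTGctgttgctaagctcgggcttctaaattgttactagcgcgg
MNT, chr17:2401208-2401293: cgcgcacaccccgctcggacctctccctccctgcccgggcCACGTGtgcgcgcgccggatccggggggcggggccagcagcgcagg

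Read totals lay between 17434810 and 19959917 per library, and replicates correlated with r from 0.961 to 0.993 across genes. In 14 libraries 5.07% to 7.02% of reads came from mitochondrial genes. The other 4 held more: 15.0% in Molm-14 RMC replicate 2, 12.7% and 14.6% in MV4-11 DMSO replicates 1 and 3, and 10.5% in MV4-11 RMC replicate 1. Results are therefore given for all 18 libraries and for the 14 under 10%, where MV4-11 with DMSO keeps 1 library and is assumed to vary like the other groups. The myeloid genes SPI1, CSF3R, FLT3 and CD33 were present in every library, at 34.5 CPM or more. RUNX1T1, part of the fusion gene of SKNO-1, had 10.9 to 14.4 CPM there and at most 1 read in any library of the other lines. The T-cell genes CD3D and CD3E had at most 1 read in any library. A further T-cell gene, CD247, had more: up to 15 reads (MV4-11), 14 (SKNO-1) and 13 (Molm-14). Its level was at most 0.898 CPM in any library.

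MYC fell with RMC in Molm-14, lay lower with RMC in every SKNO-1 library, and showed no fall in MV4-11. In Molm-14 the level was 262, 269 and 275 CPM in the DMSO replicates and 126, 34.3 and 127 CPM in the RMC replicates. All 3 RMC libraries were below all 3 DMSO libraries, and replicate 2, the library with 15.0% mitochondrial reads, was the lowest of all 18. The fitted log2 change was -1.71 (SE 0.44), a 3.28-fold fall, with an adjusted p of 0.0049 by limma over all 18 libraries with Benjamini-Hochberg adjustment. A gene was called changed at an adjusted p under 0.05. Without that library, in the fit of the 14 libraries, the change was -1.09 with an adjusted p of 7.3e-11.

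In SKNO-1 the MYC level was 167, 163 and 154 CPM with DMSO and 91.7, 87.7 and 86.9 CPM with RMC. The groups did not overlap, and the spread within each was small (SD 6.42 and 2.56 CPM, n = 3). The log2 change was -0.86, a ratio of 1.82 between the groups, and it missed the threshold over 18 libraries (adjusted p = 0.17 by limma). In that fit all 6 groups share 1 estimate of the spread, and the SE for MYC was 0.44. With SKNO-1 fitted alone the SE was 0.05 and the adjusted p was 1.4e-07 by limma. In the fit of the 14 libraries, which keeps all 6 of SKNO-1, the adjusted p was 2.6e-10.

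In MV4-11 the MYC level was 82.6, 209 and 73.6 CPM with DMSO and 97.8, 201 and 216 CPM with RMC. The groups overlapped, and the 3 low values belonged to the 3 libraries with over 10% mitochondrial reads. The log2 change was 0.58 (SE 0.44, limma adjusted p = 0.45). Among the libraries under 10%, the single DMSO library had 209 CPM and the RMC libraries had a mean of 209 CPM, a log2 difference of 0.00. Among those over 10%, the difference between the single RMC library and the 2 DMSO libraries was 0.33.

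**Figure D1:**
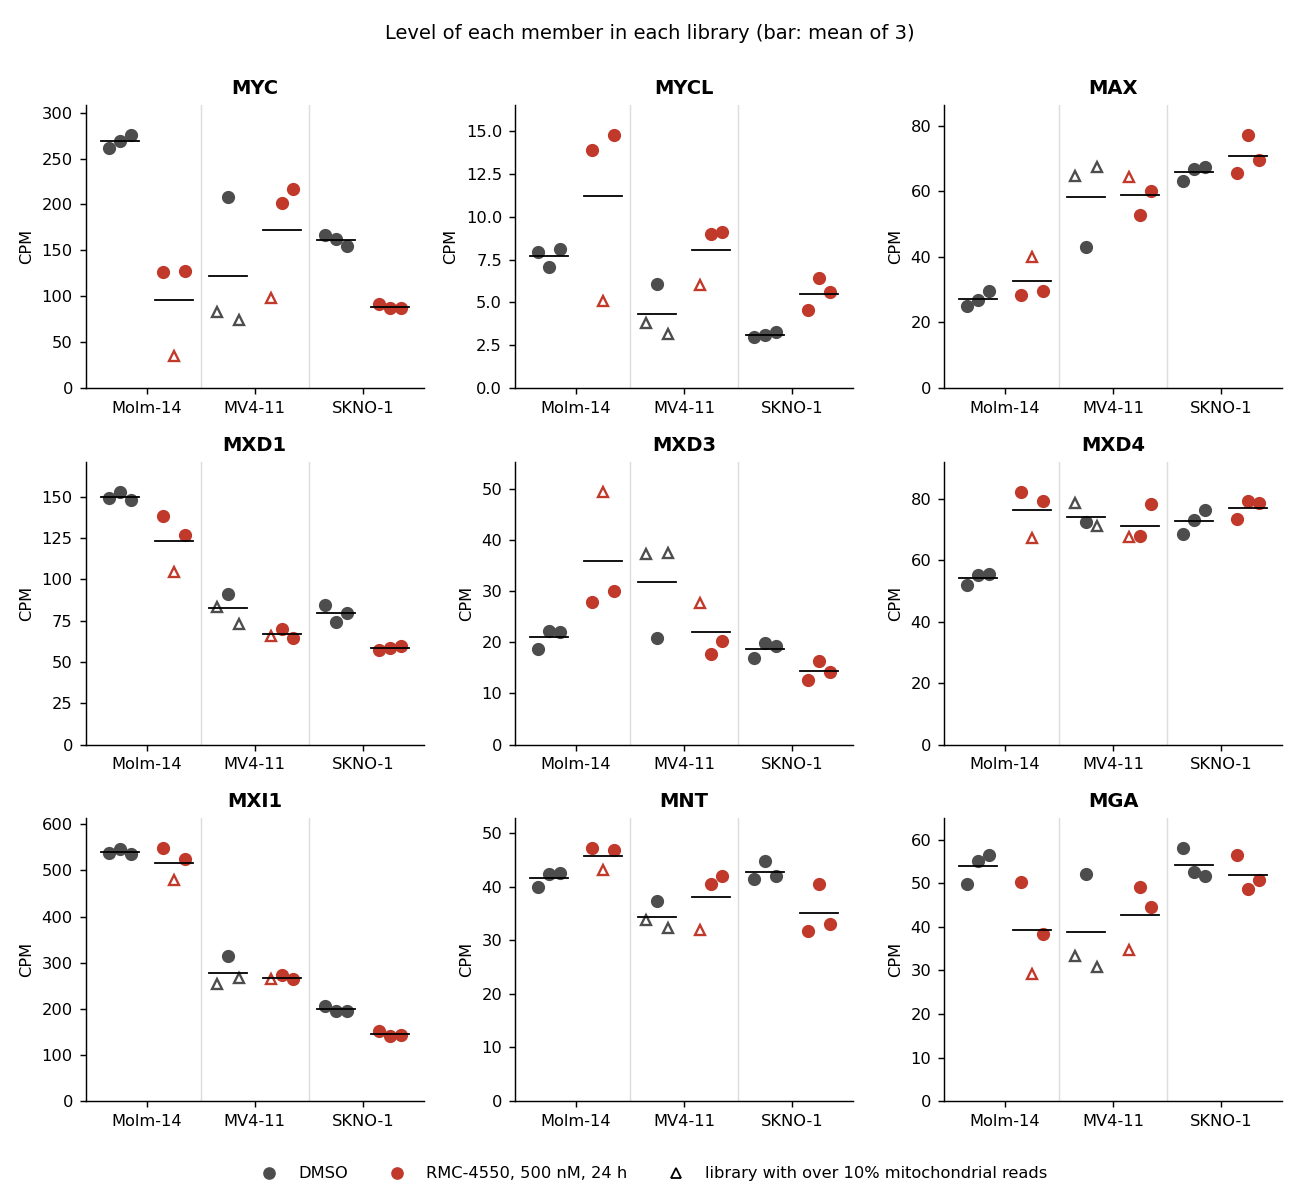
CPM of the 9 measured members in each of the 18 libraries, by line and treatment, on linear axes that start at 0. Circles are libraries with under 10% mitochondrial reads, open triangles those with more, and bars are means of 3. MYC with RMC lies below DMSO without overlap in Molm-14 and SKNO-1, while in MV4-11 the 3 triangles, between 73.6 and 97.8 CPM, lie apart from the 3 circles, between 201 and 216 CPM.

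MYC stood lower in each of the 4 libraries with over 10% mitochondrial reads than in the libraries under 10% of its own group. The log2 difference from their mean lay between -1.88 and -1.10. MV4-11 DMSO replicates 1 and 3 were both compared with the same 1 library. MYCL (-1.49 to -0.59) and MGA (-0.76 to -0.43) were also lower in all 4. MAX (0.19 to 0.65) and MXD3 (0.55 to 0.84) were higher in all 4. MXD1, MXI1 and MNT were lower in all 4 by smaller amounts, the largest being -0.37 for MNT, and MXD4 was lower in 3 and higher in 1. These differences compare libraries within a group. What the mitochondrial share itself contributes to the levels of the members was not tested, and RNA quality was not measured here. In bulk samples such as these, fewer cells with a transcript and less of it per cell cannot be told apart.

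**Figure D2:**
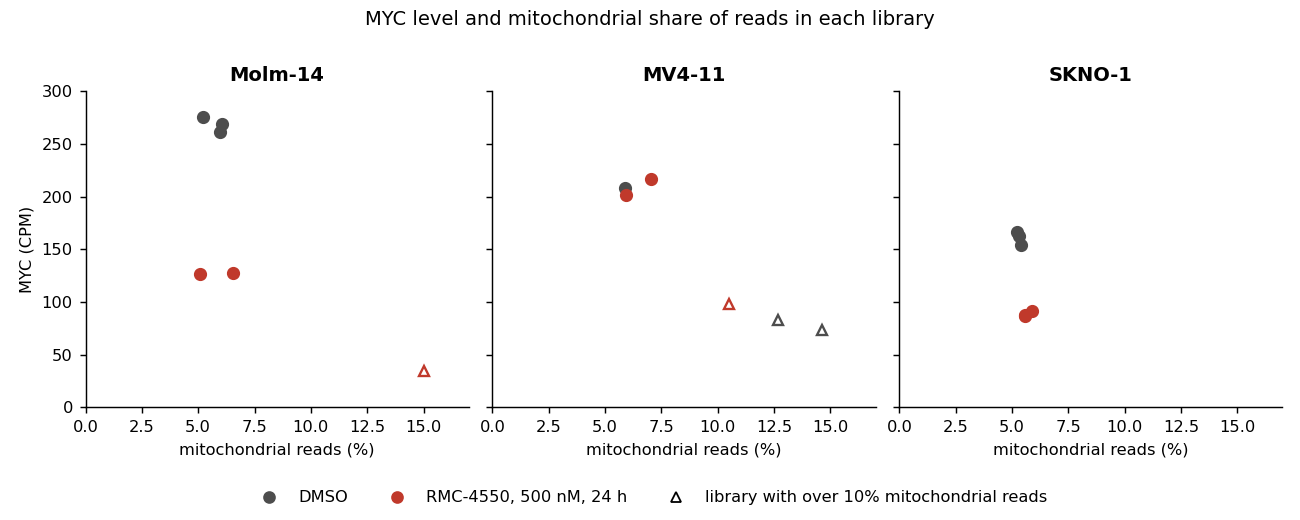
MYC in CPM against the percent of reads from mitochondrial genes, 1 point per library, with a panel for each line. The 4 libraries with 10.5% to 15.0% mitochondrial reads (triangles) have 34.3 to 97.8 CPM, while SKNO-1 shows 2 separate groups of circles at the same low mitochondrial share.

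MYCL, a MYC paralogue with a narrower range of tissues, was measured at a far lower level than MYC. In SKNO-1 it had 3.00, 3.07 and 3.30 CPM with DMSO and 4.53, 6.40 and 5.61 CPM with RMC, again without overlap but in the direction opposite to MYC. The log2 change was 0.80 (SE 0.33, limma adjusted p = 0.084), and the adjusted p was 0.0010 with SKNO-1 fitted alone. In Molm-14 the DMSO replicates had 7.95, 7.09 and 8.13 CPM and the RMC replicates 13.9, 5.06 and 14.8 CPM. The library with 15.0% mitochondrial reads was the lowest of the 6 and the other RMC libraries were the highest. Its log2 change was 0.39 (limma adjusted p = 0.34) over all libraries and 0.89 (adjusted p = 5.1e-05) over the 14. In MV4-11 the values were 3.77, 6.09 and 3.17 CPM with DMSO and 6.02, 9.01 and 9.13 CPM with RMC. The log2 change there was 0.92 (limma adjusted p = 0.078), and 0.57 (adjusted p = 0.033) over the 14 libraries. So MYCL was called higher in all 3 lines over the 14 libraries and in none over the 18.

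MYCN, which is best known from the nervous system and neuroblastoma, had 2 reads in Molm-14 DMSO replicate 3 and 0 in the other 17 libraries. A count of 0 allows up to 3 reads, a level of 0.138 to 0.192 CPM in these libraries, and this bound covers counting error only. No comparison was made for it.

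MAX, the obligate partner of every other member, showed no change that passed the test in any line. In Molm-14 it had 25.0, 26.9 and 29.6 CPM with DMSO and 28.5, 39.97 and 29.7 CPM with RMC (log2 change 0.26, limma adjusted p = 0.19). Its highest value there came from the library with 15.0% mitochondrial reads. In MV4-11 the values were 64.8, 43.0 and 67.3 CPM with DMSO and 64.3, 52.7 and 60.0 CPM with RMC (0.04, limma adjusted p = 0.91). Over the 14 libraries, with 1 DMSO library left in MV4-11, the change there was 0.39 with an adjusted p of 0.016. SKNO-1 had 63.3, 66.7 and 67.5 CPM with DMSO and 65.7, 77.2 and 69.7 CPM with RMC (0.10, limma adjusted p = 0.68).

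MXD1, an antagonist that is induced as myeloid cells mature, fell with RMC in SKNO-1 and Molm-14, and its RMC libraries lay below the DMSO libraries in all 3 lines. In SKNO-1 it had 84.4, 74.2 and 79.4 CPM with DMSO and 57.4, 58.3 and 59.8 CPM with RMC, a 1.35-fold fall (log2 change -0.44, SE 0.10, limma adjusted p = 0.0038). In Molm-14 it went from 149, 153 and 148 CPM to 139, 104 and 127 CPM, a 1.23-fold fall (log2 change -0.29, limma adjusted p = 0.024). This call was lost without any 1 of the 3 DMSO libraries or without RMC replicate 2, with changes between -0.38 and -0.18 over the 6 fits that each leave out 1 Molm-14 library. The same call was also lost with Molm-14 fitted alone, with quantile normalization and with no filter on low values. MV4-11 had 83.2, 90.9 and 72.9 CPM with DMSO and 66.0, 69.9 and 64.4 CPM with RMC. No RMC library there reached the lowest DMSO library, and the log2 change of -0.30 had an adjusted p of 0.059 by limma. Over the 14 libraries the changes were -0.18 (Molm-14), -0.44 (MV4-11) and -0.44 (SKNO-1), and all 3 were called.

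MXI1, an MXD-type antagonist, fell in SKNO-1 and did not pass the test in the other lines. The SKNO-1 values were 206, 196 and 196 CPM with DMSO and 153, 141 and 144 CPM with RMC, a 1.37-fold fall (log2 change -0.45, SE 0.08, limma adjusted p = 0.00058). Molm-14 had 537, 545 and 535 CPM with DMSO and 548, 479.5 and 524 CPM with RMC (-0.06, limma adjusted p = 0.54). MV4-11 had 254, 314 and 268 CPM with DMSO and 266, 273 and 265 CPM with RMC (-0.05, limma adjusted p = 0.74). The MV4-11 change over the 14 libraries was -0.22 with an adjusted p of 0.018, where the 1 remaining DMSO library is the highest of the 6.

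MXD4, a less studied antagonist of the same family, rose in Molm-14. It had 52.1, 55.1 and 55.5 CPM with DMSO and 82.3, 67.2 and 79.2 CPM with RMC, without overlap, a 1.40-fold rise (log2 change 0.49, SE 0.09, limma adjusted p = 0.00036). In MV4-11 it had 78.7, 72.5 and 71.2 CPM with DMSO and 67.5, 67.8 and 78.5 CPM with RMC. SKNO-1 had 68.7, 73.2 and 76.4 CPM with DMSO and 73.6, 79.2 and 78.6 CPM with RMC. The groups overlapped in both of those lines, with log2 changes of -0.06 and 0.08 that did not pass. Mean MXD4 was 76.2 CPM in Molm-14 with RMC, beside 74.1 CPM in MV4-11 and 72.8 CPM in SKNO-1 with DMSO.

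MXD3, an antagonist expressed mainly in dividing cells, also rose in Molm-14 and had negative changes, short of the threshold, in the other lines. Molm-14 had 18.8, 22.3 and 22.1 CPM with DMSO and 27.9, 49.5 and 30.1 CPM with RMC, a 1.65-fold rise (log2 change 0.72, SE 0.24, limma adjusted p = 0.020). The highest value was that of the library with 15.0% mitochondrial reads, and leaving it out, or DMSO replicate 1, ended the call in the fit over the remaining 17. In the fit of the 14 libraries the change was 0.47 with an adjusted p of 0.0023. SKNO-1 had 17.02, 19.96 and 19.4 CPM with DMSO and 12.6, 16.4 and 14.2 CPM with RMC, and its change of -0.39 passed when fitted alone (adjusted p = 0.0086) but not over 18 libraries (limma adjusted p = 0.25). In MV4-11 the values were 37.3, 20.9 and 37.4 CPM with DMSO and 27.7, 17.8 and 20.3 CPM with RMC (-0.51, limma adjusted p = 0.18), and -0.14 over the 14 libraries. The gene shares 926 of its 5154 exonic bases with RAB24 on its own strand and 1158 with PRELID1 on the other strand. Whether counting used strand is not given in the sources used here, so the MXD3 level is uncertain.

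MNT, the broadly expressed antagonist that is thought to buffer MYC in most cells, passed the test in no line over the 18 libraries. Its SKNO-1 values were 41.4, 44.7 and 42.0 CPM with DMSO and 31.6, 40.5 and 33.0 CPM with RMC, without overlap (log2 change -0.29, limma adjusted p = 0.060, and 0.013 with the line fitted alone). In Molm-14 the DMSO replicates had 39.9, 42.3 and 42.4 CPM and the RMC replicates 47.1, 43.2 and 46.8 CPM (0.14, limma adjusted p = 0.33). MV4-11 had 33.7, 37.2 and 32.3 CPM with DMSO and 31.9, 40.4 and 42.0 CPM with RMC (0.14, limma adjusted p = 0.47).

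MGA had 49.8, 55.2 and 56.6 CPM with DMSO and 50.2, 29.1 and 38.3 CPM with RMC in Molm-14. The log2 change of -0.49 had an adjusted p of 0.051 by limma, and -0.30 with 0.018 over the 14 libraries. In MV4-11 the values were 33.3, 52.2 and 30.8 CPM with DMSO and 34.8, 49.1 and 44.7 CPM with RMC, and the 3 low ones came from the libraries with over 10% mitochondrial reads. The change there was 0.17 over all libraries and -0.16 over the 14, and neither passed. SKNO-1 had 58.0, 52.6 and 51.7 CPM with DMSO and 56.4, 48.8 and 50.8 CPM with RMC (-0.06, limma adjusted p = 0.86).

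In all, 2 of the 9 tested members rose in Molm-14 (MXD4 and MXD3) and 2 fell (MYC and MXD1), beside 21.5% of all tested genes called higher and 25.1% called lower. SKNO-1 had 2 called lower (MXD1 and MXI1) and 0 higher, beside 16.2% lower and 10.8% higher of all genes. At an unadjusted p under 0.05 it had 1 higher (MYCL) and 3 lower. MV4-11 had 0 members called in either direction by limma, beside 5.85% of all genes called higher and 8.03% lower, and at an unadjusted p under 0.05 there were 1 higher (MYCL) and 2 lower (MXD1 and MXD3). So with RMC the share of members called lay near the background in each line, and the network as a whole was not set apart by it. RMC and DMSO libraries did not overlap for 5 of 9 members of the network in the Molm-14 cultures, for 1 in MV4-11 and for 6 in SKNO-1, where the shares over all genes were 60.0%, 24.6% and 62.0%.

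The calls depended on how the spread was estimated. With each line fitted alone, Molm-14 had 3 members called, MV4-11 had 0 and SKNO-1 had 6 (MYCL higher, and MYC, MXD1, MXD3, MXI1 and MNT lower), beside 37.5%, 4.53% and 55.8% of all genes. Over the 14 libraries the counts were 6, 4 and 6, beside 58.6%, 28.4% and 53.2% of all genes. The same 6 members of SKNO-1 were called both ways. In MV4-11 the 4 were MYCL and MAX (higher) and MXD1 and MXI1 (lower), each against 1 DMSO library.

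**Figure D3:**
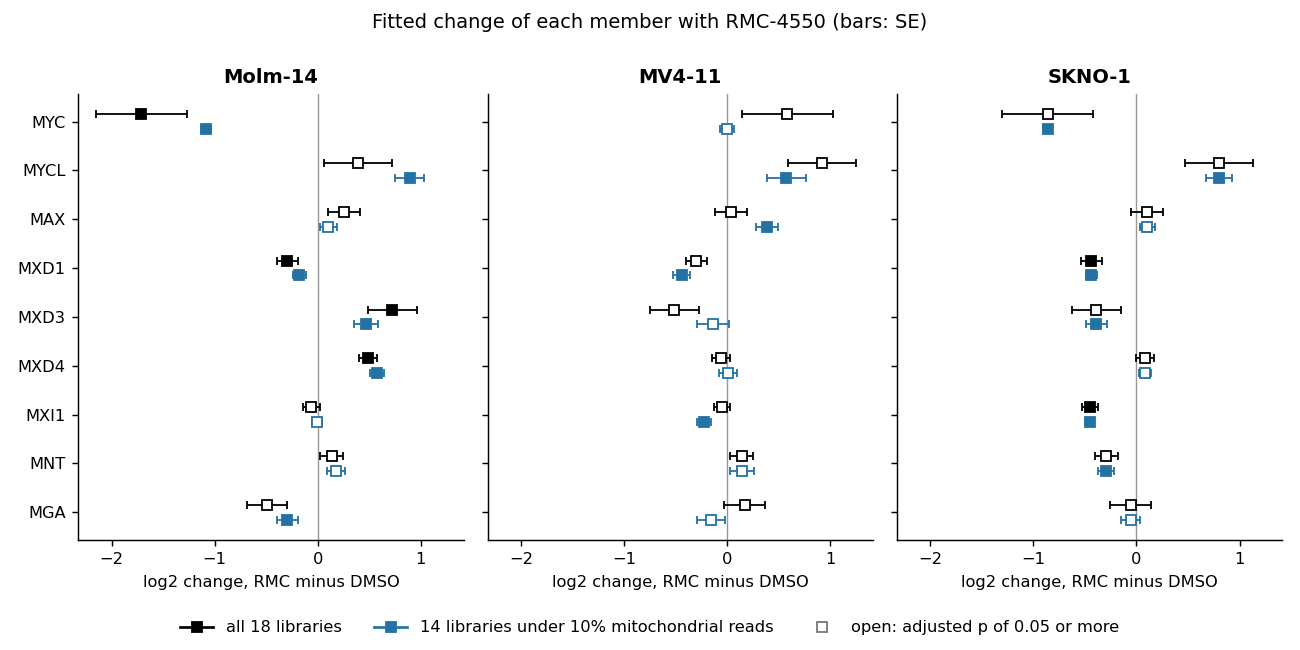
Fitted log2 change with RMC of each member in each line, with its SE, from all 18 libraries (black) and from the 14 with under 10% mitochondrial reads (blue). Filled squares passed an adjusted p of 0.05. The MYC change in MV4-11 goes from 0.58 to 0.00 between the fits, and its SE in all lines is far smaller in the second.

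The response of 3 members differed between MV4-11 and Molm-14, where 19.4% of all genes differed in this way. For MYC the MV4-11 change minus the Molm-14 change was 2.30 (SE 0.62, limma adjusted p = 0.019), and 1.09 (adjusted p = 7.4e-07) over the 14 libraries. The call over 18 was lost without MV4-11 DMSO replicate 1 or 3 or MV4-11 RMC replicate 2 or 3, with values between 1.67 and 2.77 as each library was left out. MXD3 (-1.24, limma adjusted p = 0.019) and MXD4 (-0.54, adjusted p = 0.0085) were the other 2, and over the 14 libraries MXD3 was -0.60 and MXD4 was -0.57, both still called. Between SKNO-1 and Molm-14 the changes of MXD3 (-1.11, limma adjusted p = 0.044) and MXI1 (-0.39, adjusted p = 0.039) differed, beside 10.9% of all genes, and each of these calls was lost in 10 of the 12 fits that left out 1 library of these lines. The exceptions were Molm-14 RMC replicates 1 and 3 for MXD3, and Molm-14 RMC replicate 2 and SKNO-1 RMC replicate 1 for MXI1. The MYC change of SKNO-1 and Molm-14 differed by 0.85 (limma adjusted p = 0.42), and by 0.22 (adjusted p = 0.022) over the 14 libraries. Between SKNO-1 and MV4-11, 0 of 9 members passed in limma, beside 1.65% of all genes, and 3 had an unadjusted p under 0.05 (MYC, MXI1 and MNT). MYC alone passed there over the 14 libraries, with -0.86 (adjusted p = 2.3e-05).

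With DMSO alone, members of each role differed between the lines. SKNO-1 and Molm-14 differed in 5 of 9 members, SKNO-1 and MV4-11 in 4, and MV4-11 and Molm-14 in 8, beside 65.1%, 41.6% and 54.0% of all genes. Relative to Molm-14, both other lines had less MXI1 (log2 difference -1.44 in SKNO-1 and -0.96 in MV4-11) and less MXD1 (-0.92 and -0.87). Both had more MAX (1.28 and 1.08) and more MXD4 (0.42 and 0.45), with limma adjusted p-values of 0.00053 or below for these 8 differences. These calls held over the 14 libraries, where the MAX difference of MV4-11 was 0.67. MYC with DMSO was lower in MV4-11 than in Molm-14 (-1.31, limma adjusted p = 0.020), but the call was lost without MV4-11 DMSO replicate 1 or 3 or Molm-14 DMSO replicate 3, and the difference was -0.37 over the 14 libraries. Over those, the order was Molm-14 with 269 CPM, MV4-11 with 209 CPM in its 1 library and SKNO-1 with 161 CPM, and each step of -0.37 passed (limma adjusted p = 0.00019 and 0.00024). MYC in SKNO-1 was above MV4-11 by 0.58 over all libraries (limma adjusted p = 0.30), the opposite direction. MYCL, MNT and MGA were also called lower in MV4-11 than in Molm-14, by -0.88, -0.28 and -0.51, and each was lost in 5 of the 6 fits that left out 1 library of these groups, the exception being MV4-11 DMSO replicate 2. Over the 14 libraries none of these 3 was called, at -0.34 for MYCL, -0.16 for MNT and -0.043 for MGA. SKNO-1 had less MXI1 than MV4-11 (-0.48, limma adjusted p = 0.00023), less MXD3 (-0.72, lost without replicate 1 or 3 of either group), and more MNT and MGA (0.31 and 0.52, each lost in 5, with the same exception). Over the 14 libraries the MXD3 (-0.16), MNT (0.20) and MGA (0.050) differences were not called, and SKNO-1 had more MAX (0.61) and less MYCL (-0.96) than the single MV4-11 library, both called.

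To compare genes with each other, levels were divided by the length of the longest GENCODE 29 transcript, which gives CPM per kb. In Molm-14 with DMSO the order was MXI1 (155 ± 1.597), MYC (114 ± 2.88), MXD1 (26.9 ± 0.470), MXD4 (12.8 ± 0.438), MXD3 (9.24 ± 0.864), MAX (8.61 ± 0.739), MNT (8.32 ± 0.282), MGA (3.73 ± 0.248) and MYCL (2.37 ± 0.170), each in CPM per kb with its SD (n = 3). MXD3, MAX and MNT overlapped and cannot be ordered. On this length, in SKNO-1 with DMSO, MYC (68.2 ± 2.71) stood above MXI1 (57.4 ± 1.71) without overlap, followed by MAX (20.9 ± 0.720), MXD4 (17.2 ± 0.917) and MXD1 (14.2 ± 0.910). MNT and MXD3 overlapped at 8.55 ± 0.348 and 8.24 ± 0.681, and MGA and MYCL were again lowest. In MV4-11 with DMSO, MXI1 (80.2 ± 9.03) and MYC (51.4 ± 31.9) overlapped, as did MAX (18.5 ± 4.24) with MXD4 (17.5 ± 0.954) and MXD1 (14.7 ± 1.62) with MXD3 (13.98 ± 4.18). With RMC, MYC in SKNO-1 (37.5 ± 1.08) stood below MXI1 (42.0 ± 1.80), and in Molm-14 MYC (40.5 ± 22.5) stood below MXI1 (149 ± 10.0). The order of MYC and MXI1 in SKNO-1 with DMSO depends on the length used. Without division by length MYC (161 ± 6.42 CPM) lay below MXI1 (199 ± 5.94 CPM). Per kb of the median transcript, MYC (118 ± 4.70) also lay below MXI1 (225 ± 6.71), so in both of these MYC was the lower with and without RMC. The balance and the shares given next use the longest transcript as well.

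The balance was taken in each library as the log2 of the summed CPM per kb of MYC, MYCN and MYCL over that of the 6 antagonists MXD1, MXD3, MXD4, MXI1, MNT and MGA. It is a description of transcripts, with no test, and it says nothing of protein. It was below 0 in all 18 libraries, so the antagonists together exceeded the MYC family. Molm-14 had -0.92, -0.92 and -0.86 with DMSO, MV4-11 had -1.87, -0.68 and -2.04, and SKNO-1 had -0.63, -0.64 and -0.72. With RMC, Molm-14 had -1.98, -3.67 and -1.90, MV4-11 had -1.54, -0.52 and -0.43, and SKNO-1 had -1.12, -1.18 and -1.18. The RMC libraries lay below the DMSO libraries without overlap in Molm-14 and SKNO-1, and overlapped with them in MV4-11.

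In Molm-14 the mean balance was lower by 1.62 (log2 change -1.62, SE 0.58), and -1.04 without the library with 15.0% mitochondrial reads. The MYC family went from 116 ± 2.93 to 44.0 ± 24.2 CPM per kb, and the antagonist sum from 216 ± 3.07 to 217 ± 11.1 CPM per kb (SD, n = 3). In SKNO-1 both sides were lower with RMC: the MYC family went from 69.2 ± 2.67 to 39.2 ± 0.857 CPM per kb, and the antagonists from 109 ± 1.05 to 87.7 ± 0.613 CPM per kb, neither with overlap. The log2 change was -0.82 for the MYC family and -0.32 for the antagonists, so the balance changed by -0.50 (SE 0.03). MXI1 and MXD1 were the antagonists called lower there. In MV4-11 the balance changed by 0.70 (SE 0.56) over all libraries and by 0.20 over those under 10% mitochondrial reads. Its antagonist sum went from 136 ± 6.94 to 126 ± 0.785 CPM per kb without overlap.

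**Figure D4:**
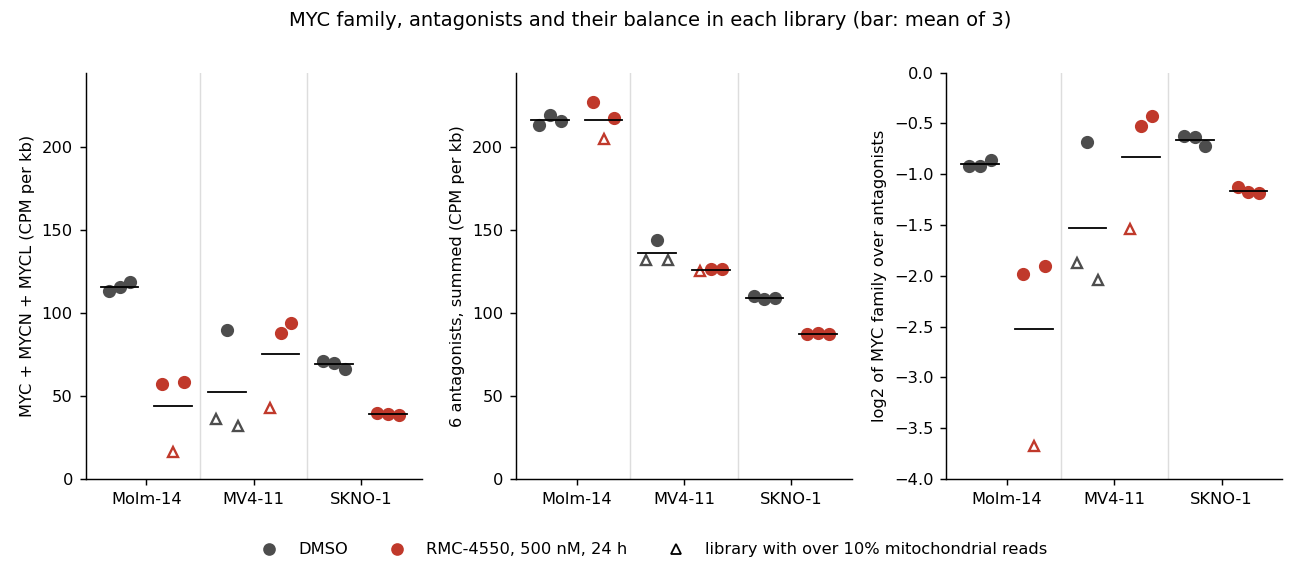
Summed CPM per kb of the MYC family, of the 6 antagonists, and the log2 of their ratio in each library, with bars at the mean of 3. The antagonist sum in Molm-14 is about the same with and without RMC (216 and 217 CPM per kb) while the MYC family is lower, and in SKNO-1 both are lower.

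MXI1 made up most of the antagonist sum in Molm-14 (71.8% ± 0.583 with DMSO and 68.7% ± 1.18 with RMC, SD, n = 3) and in MV4-11 (58.9% ± 3.70 and 61.1% ± 1.00). In SKNO-1 its share was 52.5% ± 1.10 with DMSO and 47.9% ± 2.25 with RMC. Taken singly in Molm-14, MYC changed against each antagonist by a log2 ratio between -2.44 (MXD3) and -1.22 (MGA), all without overlap, and between -1.66 (MXD4) and -0.79 (MGA) without the library with 15.0% mitochondrial reads, where MXD3 was at -1.55. In SKNO-1 the range was -0.95 (MXD4) to -0.41 (MXI1), also without overlap for each of the 6. Per MAX, which both sides need, the summed level of all its partners was 38.8 ± 2.85 in Molm-14 with DMSO, 11.0 ± 5.33 in MV4-11 and 8.57 ± 0.458 in SKNO-1. With RMC it was 26.1 ± 7.57, 10.9 ± 2.36 and 5.67 ± 0.459.

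Genes around the network were read from 8 lists, chosen with earlier results of these data known, so their counts are a description. Genes called one way in every line are named by rule, and the others named were chosen after their values were seen. The shares of all genes to read the counts against, in Molm-14, in MV4-11 and then in SKNO-1, are 25.1%, 8.03% and 16.2% called lower and 21.5%, 5.85% and 10.8% called higher. They are, over the 14 libraries, 32.0%, 19.6% and 32.0% lower and 26.6%, 8.83% and 21.2% higher. Of 30 genes that MYC activates in many cell types, 28 fell with RMC in Molm-14 and 20 in SKNO-1, and 3 fell in MV4-11, with none higher in any line by limma. The count in MV4-11 was 12 over the 14 libraries and 1 with the line fitted alone, while Molm-14 (30 and 26) and SKNO-1 (28 and 27) stayed high. At an unadjusted p under 0.05, 1 of the 30 was higher, ODC1 in MV4-11, which did not pass adjustment. The median log2 change was -0.91 (Molm-14), -0.10 (MV4-11) and -0.58 (SKNO-1), beside -0.06, -0.01 and -0.05 over all tested genes. The 3 that fell in all lines were TERT, the catalytic subunit of telomerase (log2 changes -1.504, -0.82 and -2.49), HSPE1, the mitochondrial co-chaperonin (-1.13, -0.77 and -0.86), and CCND2, which encodes cyclin D2 (-0.80, -0.36 and -0.47). In MV4-11 the HSPE1 call was lost under 6 of 11 alternatives, among them the replicate block, and without DMSO replicate 1 or 3 or RMC replicate 2 or 3. In SKNO-1 it was lost without DMSO replicate 3 or RMC replicate 2. TERT in MV4-11 was not called over the 14 libraries, and CCND2 was not called there with the line fitted alone. TERT was measured at 16.9 ± 1.74 CPM with DMSO and 5.95 ± 0.761 CPM with RMC in Molm-14, and at 8.31 ± 0.827 and 1.53 ± 0.607 CPM in SKNO-1 (SD, n = 3).

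Of 10 genes that MYC represses, 2 of the 8 tested rose and 1 fell in Molm-14. In MV4-11 1 of 9 rose and 1 fell, and in SKNO-1 1 of 10 rose. Over the 18 libraries these shares were near those of all genes. The one that rose in all 3 lines was CDKN1C, the CDK inhibitor p57. It went from 2.55 ± 0.123 to 18.7 ± 4.14 CPM in Molm-14 (2.84 on the log2 scale), from 8.80 ± 2.48 to 14.1 ± 2.88 CPM in MV4-11 (0.70) and from 8.10 ± 0.410 to 12.8 ± 0.872 CPM in SKNO-1 (0.65). The CDKN1C call was lost in MV4-11 without DMSO replicate 2 or RMC replicate 1 or 3, with the line fitted alone or with no filter, and in SKNO-1 without any 1 library other than DMSO replicate 3. KLF6 (0.55) was the other that rose in Molm-14. The one that fell, in Molm-14 and MV4-11, was GADD45A, a stress-response gene (-1.01 and -0.66). The GADD45A call in MV4-11 was lost with the line fitted alone. The numbers that rose over the 14 libraries were 5, 4 and 4, and 1 fell in each line.

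Among 13 cofactors of MYC, Molm-14 had 4 that fell, MV4-11 had 1 and SKNO-1 had 5, and none rose. The counts in Molm-14 and MV4-11 are near the shares of all genes called lower. RUVBL1 and RUVBL2, a pair of ATPases, fell in Molm-14 (-1.30 and -0.93) and SKNO-1 (-0.58 and -0.60), where the RUVBL1 call was lost without DMSO replicate 3 or RMC replicate 2. ACTL6A, an actin-related subunit of chromatin complexes, fell in all 3 (-0.87, -0.42 and -0.92), though in MV4-11 not without RMC replicate 3 or with the line fitted alone. Of 10 corepressor genes used by the MXD proteins and MNT, 4 fell and SIN3B rose (0.71) in Molm-14, RBBP7 alone fell in SKNO-1 (-0.61), and 0 passed in MV4-11 by limma, also 0 at an unadjusted p under 0.05. With the 14 libraries alone, 6 of the 10 were called lower and 2 higher in Molm-14, and 5 lower and 1 higher in SKNO-1. In MV4-11, against 1 DMSO library, their median log2 change was then -0.20, beside -0.07 over all tested genes. In the MGA complex, Molm-14 had 8 of 10 that fell, MV4-11 had 2 and SKNO-1 had 7, and RING1 rose in Molm-14 (0.34, limma adjusted p = 0.049). The RING1 call was lost with the replicate block, the line fitted alone, no filter or no trend, and without any 1 DMSO library or RMC replicate 2. PCGF6, a subunit particular to PRC1.6, changed by -0.82, -0.62 and -0.87 and the chromatin reader CBX3 by -0.58, -0.45 and -0.48.

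Of 13 genes that act on the stability of the MYC protein, Molm-14 had 8 that fell, MV4-11 had 4 and SKNO-1 had 7, and none rose. The MV4-11 count was 1 with the line fitted alone and 8 over the 14 libraries. This list holds genes that protect the protein and genes that degrade it. Those that fell in all lines were CIP2A, an inhibitor of the phosphatase PP2A (-1.21, -0.61 and -1.17), AURKA, a mitotic kinase (-0.96, -0.62 and -0.85), SKP2, a ubiquitin ligase subunit (-0.53, -0.42 and -0.62), and PPP2CA, the catalytic subunit of PP2A (-0.24, -0.32 and -0.43). In MV4-11 the CIP2A call was lost under 5 of 11 alternatives, among them the replicate block, and without DMSO replicate 2 or RMC replicate 1 or 3. The SKP2 call there was lost without RMC replicate 3 or with the line fitted alone. The PPP2CA calls in Molm-14 and MV4-11 were each lost under 4 of 11 alternatives, in Molm-14 without any 1 library other than RMC replicate 2, and in MV4-11 without DMSO replicate 1 or 3 or RMC replicate 2 or 3. The list of the MLX branch, which senses glucose, holds the MAX and MYC relatives MLX, MLXIP and MLXIPL, and also TXNIP and ARRDC4. In it MLXIP rose in Molm-14 (0.89) and MV4-11 (0.49) and ARRDC4 rose in SKNO-1 (0.56), 1 gene in each line over the 18 libraries. The MLXIP call in MV4-11 was lost with the line fitted alone. SKNO-1 had 3 genes of this list higher and 1 lower, both with the line fitted alone and over the 14 libraries. Of the 5 transcripts that neighbour or overlap members, only 3 were found by symbol. Among these, PVT1 beside MYC was the only one above 1 CPM in at least 3 samples. It had 27.9 to 30.2 CPM in Molm-14 with DMSO and 23.9 to 36.8 CPM with RMC, and its changes of -0.07, -0.25 and -0.20 did not pass in any line. It passed over the 14 libraries in Molm-14 (-0.27) and in SKNO-1 (-0.20), lower with RMC in each.

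**Figure D5:**
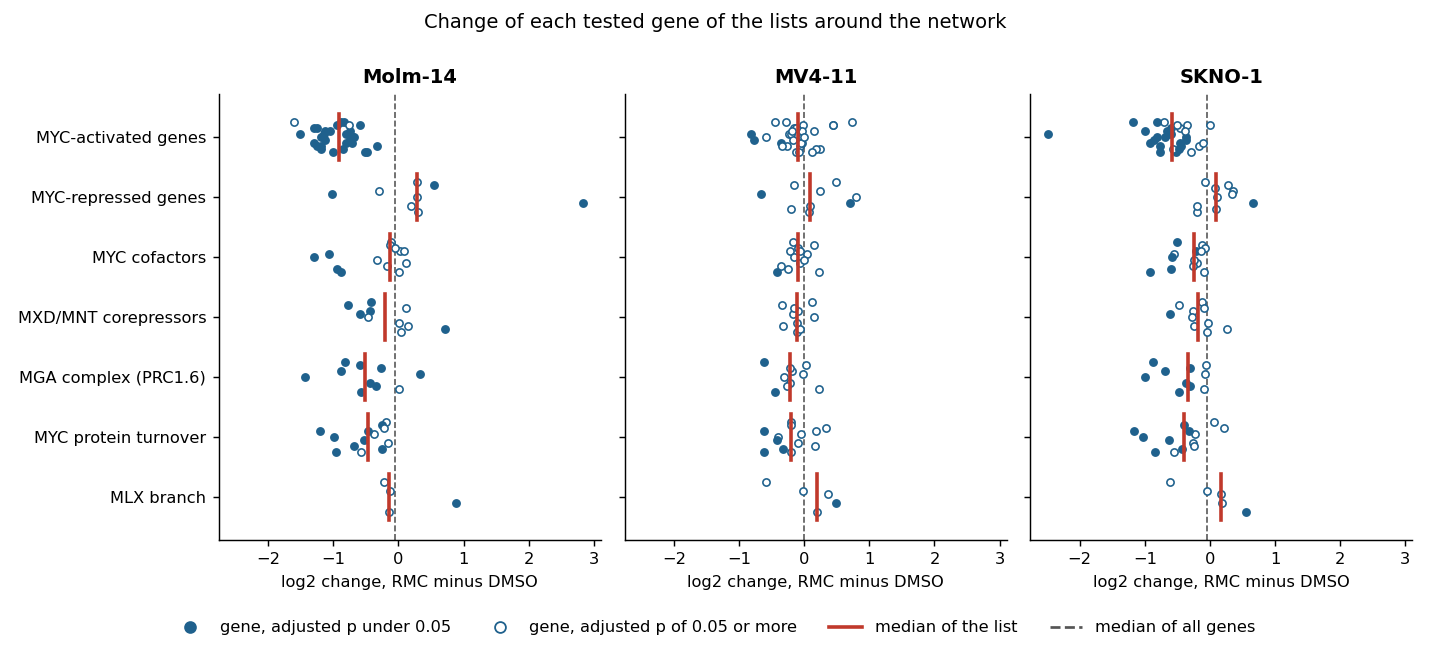
Log2 change with RMC of each tested gene in 7 lists around the network, with a panel for each line, from the fit over 18 libraries. Filled circles passed an adjusted p of 0.05, red bars are list medians and the dashed line is the median of all tested genes. The medians of the MYC-activated genes lie left of that line in Molm-14 (-0.91) and SKNO-1 (-0.58) and nearer to it in MV4-11 (-0.10).

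Genes whose level followed MYC most closely were found from Pearson correlations over the 18 libraries after subtracting each line's mean, among 11027 genes with a mean of at least 5 CPM. The points share treatment, library and mitochondrial share, so this is a description only. The 5 highest were GRWD1, a ribosome assembly factor (r = 0.99), DLAT, a subunit of pyruvate dehydrogenase (0.99), LRRC59 (0.99), CDCA7L (0.98) and PUF60, a splicing factor (0.98). The 3 lowest were EOLA2-DT (-0.99), POLR3GL, an RNA polymerase III subunit (-0.98), and PCGF3, a Polycomb subunit (-0.98). These 8 had, over the 14 libraries, correlations of 0.93 or more in size, from 0.93 to 0.98 and from -0.96 to -0.95. Among the members, MGA (0.89) was the most like MYC and MAX (-0.80) the least over 18 libraries, and over the 14 these were 0.57 and -0.35. MXD1 (0.71) and MXI1 (0.63) were then more like MYC than MGA was, and MXD4 was at -0.80. MYCL went from 0.26 over 18 libraries to -0.92 over the 14.

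The members lie on 9 chromosomes, with coordinates from GENCODE release 29 on GRCh38. MYC is on chromosome 8, from 127735434 to 127741434, and MAX on chromosome 14, from 65006174 to 65102695. MXD1 (69897688 to 69942945) and MYCN (15940564 to 15947007) are on chromosome 2. MXI1 is on chromosome 10 (110207605 to 110287365), MXD4 on chromosome 4 (2247432 to 2262294), MXD3 on chromosome 5 (177301461 to 177312757), MYCL on chromosome 1 (39895426 to 39902256), MNT on chromosome 17 (2384060 to 2401118) and MGA on chromosome 15 (41621224 to 41773081). MXD1 shares 237 of its 6351 exonic bases with SNRNP27, and MNT shares 1065 of 8728 with an antisense gene on the other strand. The overlaps of MYCL, MAX and MXI1 are with antisense genes of under 1 CPM in every library.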

How the data were processed

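The authors deposited 1 table of log2 values for 40184 Ensembl gene IDs in 18 samples. FastQC, STAR, limma and the build GRCh38 are named without roles or versions, per the submitters' processing notes. The counter, annotation, strandedness and filters are not given in the sources used here. Undoing log2 of reads plus 0.5 on the CPM scale of the scaled library gave whole reads for 100% of the values checked (1 to 1000 reads, tolerance 0.1), from which CPM was computed. Scaling factors ran from 0.890 to 1.11. The fit was limma 3.58.1 in R 4.3.3 (lmFit, contrasts.fit and eBayes with trend). It took the deposited log2 values of the 16289 genes that reached 1 CPM in 3 or more samples, with two-sided p-values. A gene was tested in a line with at least 1 CPM in 3 of its samples. It had 1 coefficient per group, and Benjamini-Hochberg adjustment ran over all genes tested in a contrast. On simulated data for Molm-14 (15988 genes), 86 of 100 genes changed by 0.7 and 97 of 100 changed by 1.5 (log2) were recovered. Of the calls, 8.5% were unchanged genes. The simulated spread of each gene came from SKNO-1 with DMSO, for every group. Real Molm-14 libraries with RMC can spread more, as for MYC (SD 1.09 log2, against 0.058 in SKNO-1 with DMSO). So these rates hold for the simulated spread only. Symbols matched 40069 IDs. The members and lists were chosen with earlier results of these data known. Named by rule were all members, list genes called the same way in all 3 lines or in opposite ways in 2 (at least 5 CPM), and the 5 most and 3 least MYC-like genes. Same-numbered DMSO and RMC samples did not deviate together in most pairs (r over 0.1 in 3 of 9 pairs), so numbers were not treated as pairs. In MV4-11 their r was 0.39, 0.59 and -0.40 for replicates 1, 2 and 3. There DMSO replicate 3 and RMC replicate 1, which differ in number, had an r of 0.64. Promoter sequences are RefSeq's (GRCh38.p14), and lengths are GENCODE 29's, held for 38900 IDs. Alternatives were log2(CPM + 1), filters (none, or a mean of 5 CPM), median-ratio and quantile scaling, each line alone, the replicate number as a block, no trend, voom weights, the mitochondrial share as a covariate, only libraries under 10% mitochondrial reads, and each library left out. Figures used matplotlib 3.10.9.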

Additional observations from a re-analysis of the deposited data

Results flagged for a closer look

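For 4 members the change with RMC differed between lines by a test of the difference itself, in limma over all 18 libraries. MYC changed by 2.30 (log2, SE 0.62, adjusted p = 0.019) more in MV4-11 than in Molm-14. MXD3 changed by -1.24 (SE 0.34, adjusted p = 0.019) in MV4-11 relative to Molm-14 and by -1.11 (SE 0.34, adjusted p = 0.044) in SKNO-1 relative to Molm-14. MXD4 changed by -0.54 (SE 0.13, adjusted p = 0.0085) in MV4-11 relative to Molm-14.

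MXI1 changed in SKNO-1 by -0.39 (SE 0.11, adjusted p = 0.039) relative to Molm-14. All 4 of the libraries with over 10% mitochondrial reads belong to Molm-14 or MV4-11. Over the 14 other libraries these 5 differences were 1.09 for MYC, -0.60 and -0.85 for MXD3, -0.57 for MXD4 and -0.44 for MXI1, and all 5 passed (limma). The SKNO-1 differences from Molm-14 were less stable. The replicate block, no filter and no trend ended both calls (adjusted p = 0.076, 0.077 and 0.063 for MXD3, and 0.068, 0.14 and 0.059 for MXI1, limma). Median-ratio scaling (adjusted p = 0.055), quantile normalization (0.082) and voom weights (0.053) also ended that of MXD3 in limma. Each was lost in 10 of 12 fits without 1 library. MYC against Molm-14 in MV4-11 was lost in 4 of those 12, MXD3 in 3 and MXD4 in 0.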

How the results depend on the processing

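Over 14 libraries under 10% mitochondrial reads, all genes called were 3109 higher and 4707 lower in SKNO-1 and 2682 lower in MV4-11. List genes called were 5 higher and 37 lower in MV4-11, 9 higher in Molm-14, and 9 higher and 63 lower in SKNO-1. Members called were 2 higher and 2 lower in MV4-11 and 1 higher and 5 lower in SKNO-1, where MYC (-0.86) now passed. Signs turned for the changes of MGA (-0.16) and MXD4 (0.0090) in MV4-11 and, with DMSO, for MXD3 between MV4-11 and Molm-14 (-0.0085) and MXD4 (0.0032) and MYC (-0.37) between SKNO-1 and MV4-11. These MV4-11 values rest on 1 DMSO library.

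With the mitochondrial share as a covariate, all genes called were 1788 higher and 3266 lower in MV4-11 and 2937 higher and 4335 lower in SKNO-1. List genes called were 5 higher and 45 lower in MV4-11, 9 higher in Molm-14, and 9 higher and 63 lower in SKNO-1. Members called were 2 higher and 1 lower in MV4-11, 4 higher in Molm-14, and 1 higher and 5 lower in SKNO-1, with MYC at -0.78. Signs turned for MYC (-0.053) and MGA (-0.088) in MV4-11, MXI1 in Molm-14 (0.0043) and, with DMSO, MGA between SKNO-1 and Molm-14 (-0.029) and MYC between SKNO-1 and MV4-11 (-0.56).

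With each line fitted alone, all genes called were 324 higher and 344 lower in MV4-11 and 3449 higher and 4750 lower in SKNO-1. List genes called were 0 higher and 3 lower in MV4-11 and 9 higher and 63 lower in SKNO-1. Members called were 1 lower in Molm-14 and 1 higher and 5 lower in SKNO-1, where MYC (-0.86) passed. Without a filter, 1 list gene was higher in MV4-11 and 1 member lower in Molm-14. Quantile normalization gave 1 member lower in each of MV4-11 and Molm-14 and turned MGA in SKNO-1 (0.069). Median-ratio scaling turned MGA in SKNO-1 (0.0060) and MXD4 with DMSO between SKNO-1 and MV4-11 (0.022). With the mean of the antagonists' log2 levels, the SKNO-1 balance changed by -0.56. With the replicate block all genes called were 2844 higher and 3267 lower in Molm-14, and no member's call within a line changed. The replicate block ended the calls of MXD3 (-1.11) and MXI1 (-0.39) between SKNO-1 and Molm-14 in the change with RMC, and of MGA with DMSO between MV4-11 and the other lines (SKNO-1 minus MV4-11 0.52, MV4-11 minus Molm-14 -0.51). It also ended the calls of HSPE1 and CIP2A in MV4-11 and RING1 in Molm-14 among the list genes named. The causes were not tested.

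As each library was left out, MV4-11 had 452 to 1414 genes called higher and 725 to 1590 lower, the least without RMC replicate 3 and the most without DMSO replicate 2, 1 to 9 list genes higher and 6 to 15 lower, and 0 to 1 members in each direction. SKNO-1 had 1008 (without RMC replicate 3; 1047 without RMC replicate 2) to 1155 genes called higher and 1 to 2 list genes higher. Molm-14 had 1 to 2 members higher and 1 to 3 lower. Changes in MV4-11 ranged from -0.17 to 0.16 for MAX and -0.11 to 0.038 for MXI1. With DMSO, SKNO-1 minus MV4-11 ranged from -0.0053 to 0.32 for MAX, -0.13 to 0.024 for MXD1 and -0.063 to 0.017 for MXD4, and SKNO-1 minus Molm-14 from -0.049 to 0.043 for MGA.

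Depth limits MYCN, at or under 3 reads in every library, and MYCL, with 53 reads in its lowest library. The 14-library results for MV4-11 compare 2 RMC libraries with 1 DMSO library.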
